A study of Mus musculus with 6 samples.

Results

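The guanylate-binding proteins (GBPs) of the mouse were followed in infarcted hearts that received miR-19a/19b mimics or a control mimic. The members were chosen by name, as the genes Gbp2 to Gbp11 whose normalized counts averaged 1 or more, and all 10 met this rule, out of 26012 genes listed and 21126 genes tested. RNA was sequenced from the ventricles of 6 male C57BL/6 mice, operated on at 8 weeks of age. Myocardial infarction (MI) was made by ligating the left anterior descending coronary artery, and 10 μg of mimic was injected into the heart at the same operation. Hearts were taken 4 days after MI, 3 after miR-19a/19b mimics and 3 after control mimic, so both groups carried the infarct and the injection, and no heart without MI was compared here. A mimic is a synthetic RNA duplex that works in the cell as the mature miRNA, and it enters whichever cells take it up.

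GBPs are large GTPases of the dynamin superfamily. Cells make them in response to interferon gamma, whose receptor signals to transcription factors that include IRF1. The proteins gather on the membranes of vacuoles and on bacteria inside the cell, break them open and help inflammasomes to form, together with another group of GTPases, the immunity-related GTPases (IRGs). They are known best in macrophages, and endothelial cells and other cells make them too.

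All 10 GBP genes had lower mean levels after miR-19a/19b mimics, with a median log2 fold change of -0.45. The summed normalized count of the family was 4738 ± 296 (SD, n = 3) in control mimic hearts, against 3545 ± 661 after miR-19a/19b injection, a difference of -25.2%. A log2 fold change below 0 was found for 49.2% of all genes tested, and the median over all of them was 0.0041. At an unadjusted p-value under 0.05 from limma, 5 of the 10 members were lower, against 2.63% of all genes tested, and these were Gbp3, Gbp4, Gbp7, Gbp8 and Gbp9. Every miR-19a/19b mimic heart lay below every control mimic heart for 4 members, Gbp3, Gbp7, Gbp8 and Gbp9, against 5.3% of all genes tested. After adjustment over all genes, 0 of the 10 members passed at 0.05, where 0% of all genes tested were called and the smallest adjusted p-value was 0.396. In limma 555 genes were lower and 293 higher at an unadjusted p-value under 0.05. Tested on recovered reads, DESeq2 called 28 genes lower and 1 higher at an adjusted p-value under 0.05 and edgeR's exact test 28 and 2, none of them a GBP gene, and edgeR's quasi-likelihood test and limma-voom called 0. In this bulk tissue, fewer cells that make GBPs and less GBP mRNA per cell cannot be told apart.

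The mimics and the letters they would pair with are shown here because a miRNA lowers mRNAs that carry its seed match in the 3′ UTR. The capitals mark the seed, bases 2 to 8 of the mature miRNA, as RefSeq gives it for GRCm38.p6.
mmu-miR-19a-3p: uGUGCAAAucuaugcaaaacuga
mmu-miR-19b-3p: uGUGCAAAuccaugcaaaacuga
miR-19a comes from chr14:115044048-115044070 on the plus strand, and miR-19b from chr14:115044358-115044380 on the plus strand and from chrX:52741991-52742013 on the minus strand. The mature sequences share the seed and differ at a single base of 23, U11C, counted from the 5′ end of miR-19a. An mRNA matches this seed with 8 bases, TTTGCACA, or with 7, as TTTGCAC or as TTGCACA. Counting only the longest 3′ UTR annotated for a gene, 0 of the 10 GBP genes held an 8-mer or a 7-mer, where 2908 of 15825 tested genes did (18.4%). The GBP 3′ UTRs ran from 515 bases in Gbp2 to 3575 bases in Gbp7, and the only shorter match was a single 6-mer, TTGCAC, in Gbp7. Upstream of the family, Socs1 held an 8-mer and Irf1 held no match of 6 or more bases. The 8-mer is shown in capitals, with the bases around it, on GRCm38.
Socs1, chr16:10783921-10783950, minus strand: ttcccagtatcTTTGCACAaaccaggggtc
A match is a stretch of letters and not a measured binding site.

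The 10 genes lie in 2 clusters. Gbp5 (chr3:142493978-142522344), Gbp7 (chr3:142530342-142550149), Gbp3 (chr3:142560026-142573209) and Gbp2 (chr3:142620602-142638008) follow each other on the plus strand of chromosome 3. Gbp8 (chr5:105014150-105139540), Gbp9 (chr5:105077630-105139539), Gbp4 (chr5:105115767-105139586), Gbp10 (chr5:105215699-105239533), Gbp6 (chr5:105270702-105293698) and Gbp11 (chr5:105323042-105346472) lie on the minus strand of chromosome 5. All coordinates are those of the files and match GENCODE M21 on GRCm38 for 10 of 10 members. Coding sequences within the chromosome 5 cluster were between 90.0% and 98.4% identical over the aligned bases (15 pairs), those within the chromosome 3 cluster between 66.0% and 79.3% (6 pairs), and those between the clusters between 65.6% and 75.9% (24 pairs). Gbp6 and Gbp10 were the closest pair at 98.4%. Of the 150-base words of its longest transcript, the length of a sequenced read, Gbp10 shared 44.6% with Gbp6 and Gbp6 shared 22.2% with Gbp10, so their separate counts are uncertain. A readthrough gene annotated across both, Gm43302, shared 63.2% of the words of Gbp10 and 35.0% of those of Gbp6, and was not analysed here. Gbp7 shared 8.93% of its words with a pseudogene inside it, Gm43802, and no other member shared more than 0.079%. Gbp8, Gbp9 and Gbp4 overlap on the same strand and share 60 or 61 exonic bases at their common 5′ end.

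Promoter sequence was at hand for the chromosome 3 members, in windows of 250 bases before to 50 bases after each RefSeq start. The windows were searched on both strands for the interferon-stimulated response element (ISRE) core GAAANNGAAA, which reads TTTCNNTTTC on the other strand, and for the gamma-activated site (GAS) TTCNNNGAA, which is its own reverse complement. The ISRE is bound by IRF proteins, and both are known as response elements of interferon target genes. The stretch that holds the matches of each gene is shown, in capitals where it matches, on the plus strand of GRCm38.p6.
Gbp5, chr3:142496684-142496899: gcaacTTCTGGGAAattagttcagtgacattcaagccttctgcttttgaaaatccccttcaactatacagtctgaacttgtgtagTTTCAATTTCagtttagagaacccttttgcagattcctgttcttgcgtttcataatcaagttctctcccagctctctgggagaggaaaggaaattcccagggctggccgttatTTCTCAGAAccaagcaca
Gbp7, chr3:142530220-142530302: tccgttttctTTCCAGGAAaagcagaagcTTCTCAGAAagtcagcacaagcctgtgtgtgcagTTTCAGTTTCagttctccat
Gbp3, chr3:142559989-142560024: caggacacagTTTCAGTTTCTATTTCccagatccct
Gbp2, chr3:142620594-142620623: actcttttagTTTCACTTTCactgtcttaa
By GENCODE M21 the Gbp7 and Gbp3 stretches end before the first exon. The Gbp5 stretch is intronic, ahead of the exon that holds its RefSeq start. The Gbp2 stretch crosses the first exon base, and its ISRE match lies past that base. Each of the 4 held an ISRE match. It lay 59 to 50 bases before the RefSeq start in Gbp2, 53 to 44 in Gbp7 and 165 to 156 in Gbp5. Gbp3 held 2 matches that overlap, 45 to 36 and 39 to 30 bases before its first RefSeq start. A further RefSeq start of Gbp3 had no match. Gbp5 and Gbp7 held 2 GAS matches each in the same window as the ISRE, and Gbp2 and Gbp3 none. Among all 32851 promoter windows of that length, 3.44% held an ISRE match, 8.3% a GAS match and 0.454% both. The 2 genes with both motifs, Gbp5 and Gbp7, had log2 fold changes of -0.32 and -0.49, and the 2 with an ISRE match only, Gbp2 and Gbp3, had -0.34 and -0.54. No entry was used for the chromosome 5 members.

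Levels between genes were set on a scale per kilobase of the longest annotated transcript. In control mimic hearts Gbp3 was highest, with 402 ± 26.7 (SD, n = 3) normalized counts per kilobase. Per kilobase of the gene length deposited with the counts, its control mean was above that of 83.6% of the genes tested. Gbp2 came next with 322 ± 32.5, followed by Gbp9 with 186 ± 11.9 and Gbp7 with 140 ± 5.08 per kilobase. Gbp3 and Gbp2 together made up most of the family's level per kilobase, with 30.3% and 24.3% of it in control mimic hearts. Gbp5 had 98.3 ± 4.98 and Gbp4 97.4 ± 14.8 per kilobase, and Gbp6 had 53.2 ± 6.97. Gbp10 (13.4 ± 6.38), Gbp8 (11.8 ± 3.38) and Gbp11 (1.82 ± 1.04) were the low members. Because Gbp6 and Gbp10 share sequence with each other and with Gm43302, their levels and ranks are uncertain. The order of the means was the same in miR-19a/19b mimic hearts. The control ranges of Gbp5 and Gbp4 overlapped, with Gbp5 the higher in 1 of the 3 control hearts, and so did those of Gbp10 and Gbp8, with Gbp10 the higher in 2 of 3, so neither pair had a fixed order. When the union of a gene's exons was used as its length, Gbp3 had 330.3 per kilobase against 322 for Gbp2, with ranges that overlapped, and Gbp2 was the higher in all 3 miR-19a/19b mimic hearts. The same change put Gbp4 (59.0) above Gbp5 (55.6) in control mimic hearts.

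**Figure D1:**
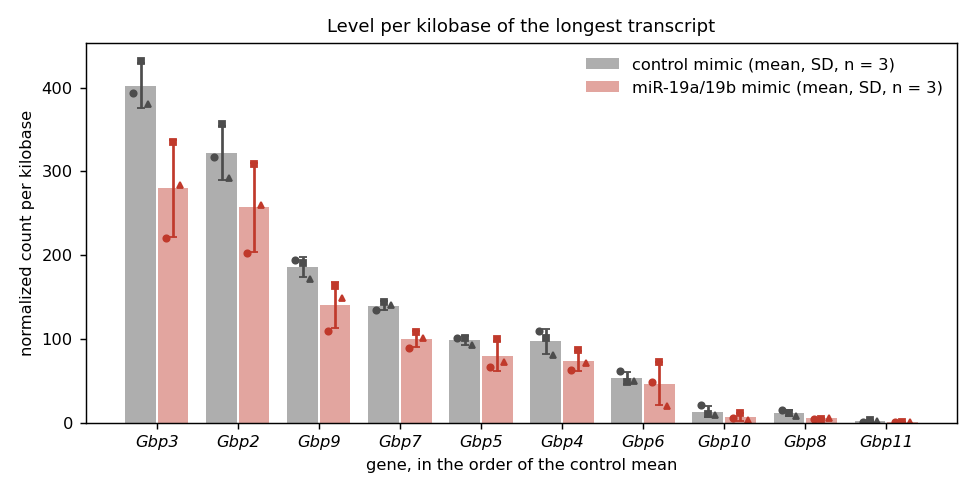
Normalized count per kilobase of the longest transcript (y axis) of the 10 GBP genes (x axis, in the order of the control mean) in control mimic (grey) and miR-19a/19b mimic hearts (red). Bars are means from 0, error bars are SD (n = 3), and circle, square and triangle are replicates 1, 2 and 3. Gbp3 (402 in controls) and Gbp2 (322) lead in both groups, and Gbp10, Gbp8 and Gbp11 are near the baseline. The levels of Gbp6 and Gbp10 are uncertain because they share sequence.

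Values from here on are normalized counts per gene, in replicates 1, 2 and 3 of each group in that order, and a fold change compares miR-19a/19b mimic with control mimic hearts on the log2(normalized count + 1) scale. Gbp7, a chromosome 3 member linked to the oxidative and autophagic defence of vacuoles, had 754, 810.0 and 790.4 in control mimic hearts, against 502, 611 and 569 after miR-19a/19b injection. The groups were clear of each other, and the replicates were the tightest of the family, with a coefficient of variation of 3.64% in controls and 9.79% after the mimics. Its log2 fold change was -0.49 (standard error 0.11, unadjusted p = 0.00151, adjusted p = 0.791 from limma). Gbp7 was also the only member to pass the adjusted threshold in any setting, at adjusted p = 0.0385 with miR-19a/19b mimic replicate 3 left out, where limma called 154 genes lower and 361 higher.

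Gbp3, the most abundant member per kilobase, had 1057, 1158 and 1020.2 in control mimic hearts, against 591, 898 and 762 after miR-19a/19b injection. Each miR-19a/19b mimic heart was below the lowest control, with replicate 1 furthest below. The log2 fold change was -0.54 (standard error 0.15, unadjusted p = 0.00614, adjusted p = 0.954 from limma). Gbp2, which is anchored in membranes by a lipid tail and coats the vacuoles of parasites, showed 799, 897 and 734 against 510.0, 776 and 654. Here replicate 2 of the miR-19a/19b mimic hearts lay within the control range and the other two below it. The log2 fold change of Gbp2 was -0.34 (standard error 0.16, unadjusted p = 0.0608), and -0.18 without miR-19a/19b mimic replicate 1. Gbp5, which also carries a lipid tail and is linked to assembly of the NLRP3 inflammasome, had 380.2, 379.6 and 348 in control mimic hearts and 249.6, 377 and 273 after the mimics. Replicate 2 was again level with the controls, and the log2 fold change was -0.32 (standard error 0.16, unadjusted p = 0.0782). It was -0.20 without replicate 1 and -0.50 without replicate 2 of the miR-19a/19b mimic hearts.

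On chromosome 5, Gbp9 reached 977, 964 and 867 in control mimic hearts, against 552, 822 and 751 after miR-19a/19b injection, with no overlap between the groups. Its log2 fold change was -0.42 (standard error 0.15, unadjusted p = 0.0217), and -0.25 without miR-19a/19b mimic replicate 1. Gbp4 had 497, 462 and 367 against 287, 396 and 324, so that replicate 2 after the mimics exceeded control replicate 3. The log2 fold change of Gbp4 was -0.40 (standard error 0.16, unadjusted p = 0.0356), and of Gbp4 and Gbp9 neither kept an unadjusted p-value under 0.05 when control mimic replicate 1 or 2 or miR-19a/19b mimic replicate 1 was left out. Gbp8 had 50.8, 41.0 and 28.0 against 16.1, 16.5 and 19.9. The control hearts were spread out and the miR-19a/19b mimic hearts lay close together, all below the lowest control. Its log2 fold change was -1.11 (standard error 0.29, unadjusted p = 0.00406, adjusted p = 0.893 from limma), and it rests on 30 to 46 reads per control heart and 15 to 23 per miR-19a/19b mimic heart. Gbp3, Gbp7 and Gbp8 had an unadjusted p-value under 0.05 with each of the 6 hearts left out in turn.

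The remaining chromosome 5 members were the variable ones. Gbp6, implicated with Gbp7 and Gbp10 in the defence of macrophages against bacteria, had 259.7, 205 and 213 in control mimic hearts and 204, 306 and 84.7 in miR-19a/19b mimic hearts. Replicate 2 after the mimics was the highest of all 6 hearts and replicate 3 the lowest, so that the coefficient of variation was 55.9% after the mimics and 13.1% in controls. The log2 fold change of Gbp6 was -0.36 (standard error 0.39, unadjusted p = 0.377), and without miR-19a/19b mimic replicate 3 its sign turned, to 0.15 (unadjusted p = 0.408). Gbp10 gave 72.9, 38.1 and 30.8 against 21.5, 40.2 and 10.4. Replicate 3 was again the lowest and replicate 2 fell among the controls, for a log2 fold change of -1.04 (standard error 0.49, unadjusted p = 0.0621). Single hearts moved it, to -0.57 without miR-19a/19b mimic replicate 3, -0.68 without control mimic replicate 1 and -1.50 without miR-19a/19b mimic replicate 2. Since the pair shares much of its sequence, their normalized counts were also summed. This gave 333, 243 and 244 in control mimic hearts and 226, 346 and 95.1 in miR-19a/19b mimic hearts. Any reads that the counting gave to neither gene are missing from the sum too. The groups overlapped for the sum too, at a log2 fold change of -0.47 (standard error 0.40, unadjusted p = 0.27). Gbp11, annotated as a polymorphic pseudogene, had 2 to 8 reads per heart, and its log2 fold change of -0.49 (standard error 0.52, unadjusted p = 0.368) is poorly determined, and moved between -0.14 and -0.87 when control mimic replicate 2 or 1, respectively, was left out. Gbp2b, a gene of the same cluster on chromosome 3, had 4 reads over the 6 hearts, a mean normalized count of 0.618, and was not tested.

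**Figure D2:**
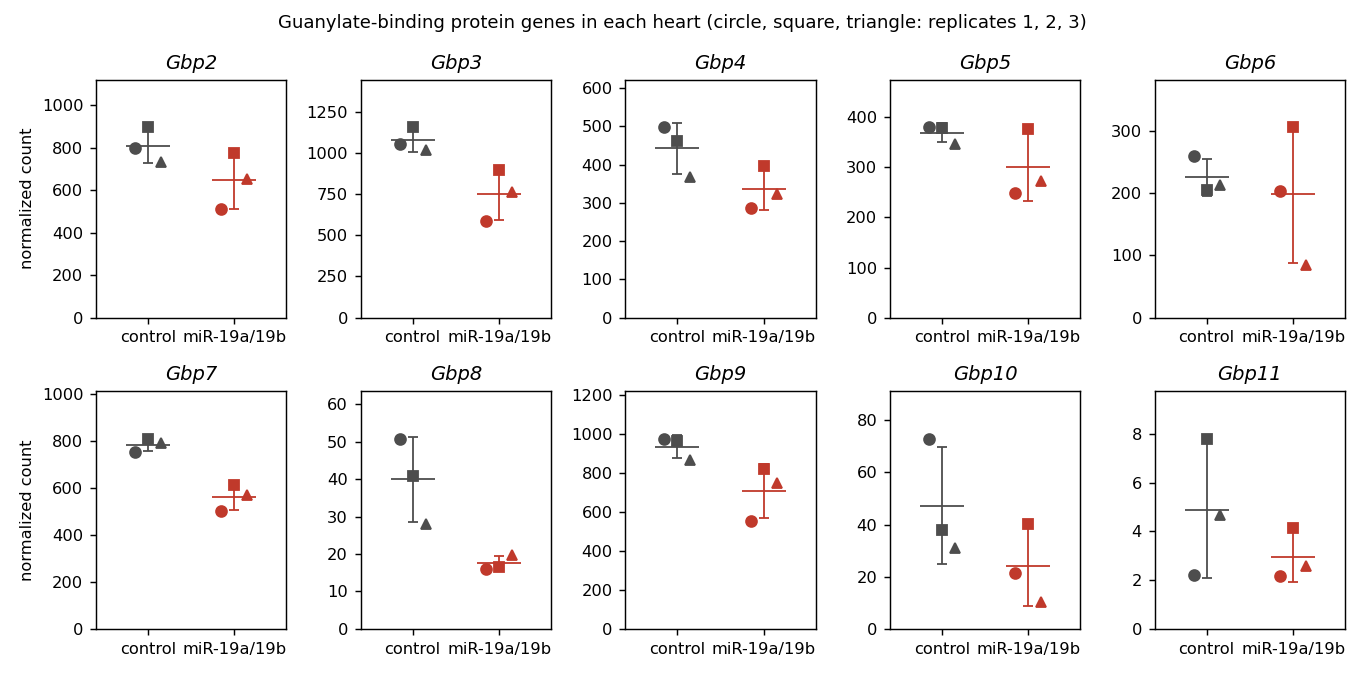
Normalized count (y axis, from 0, a scale of its own in each panel) of each GBP gene in control mimic (grey) and miR-19a/19b mimic hearts (red). Circle, square and triangle are replicates 1, 2 and 3, horizontal lines are means and error bars are SD (n = 3). The groups are apart for Gbp3, Gbp7, Gbp8 and Gbp9 and overlap for the others, and the miR-19a/19b mimic hearts span 84.7 to 306 for Gbp6.

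The 3 miR-19a/19b mimic hearts did not deviate equally. Replicate 1 was the lowest of all 6 hearts for 8 of the 10 members, and replicate 3 for the others, Gbp6 and Gbp10. For Gbp11 the rank of replicate 1 rests on 2 reads, as many as in control mimic replicate 1. For Gbp8 it rests on 15 reads, against 16 in miR-19a/19b mimic replicate 2. Replicate 2 was the highest miR-19a/19b mimic heart for 9 of 10, the exception being Gbp8. On the log2 scale, the mean of the 10 members relative to their control means was -0.72 in replicate 1, -0.19 in replicate 2 and -0.74 in replicate 3, while the control hearts lay at 0.07, 0.09 and -0.16. Without Gbp6, Gbp10 and Gbp11, a set chosen after their values were seen, these means were -0.76, -0.31 and -0.48 after the mimics, and the median log2 fold change of the remaining 7 members was -0.42. Summed normalized counts differed by -25.8% over the 4 chromosome 3 members and by -24.1% over the 6 chromosome 5 members. The chromosome 3 sum was 2989.7, 3245 and 2892 in control mimic hearts, against 1853, 2663 and 2258 after miR-19a/19b injection, so the groups did not overlap. For chromosome 5, replicate 2 after the mimics (1585) exceeded control replicate 3 (1511).

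**Figure D3:**
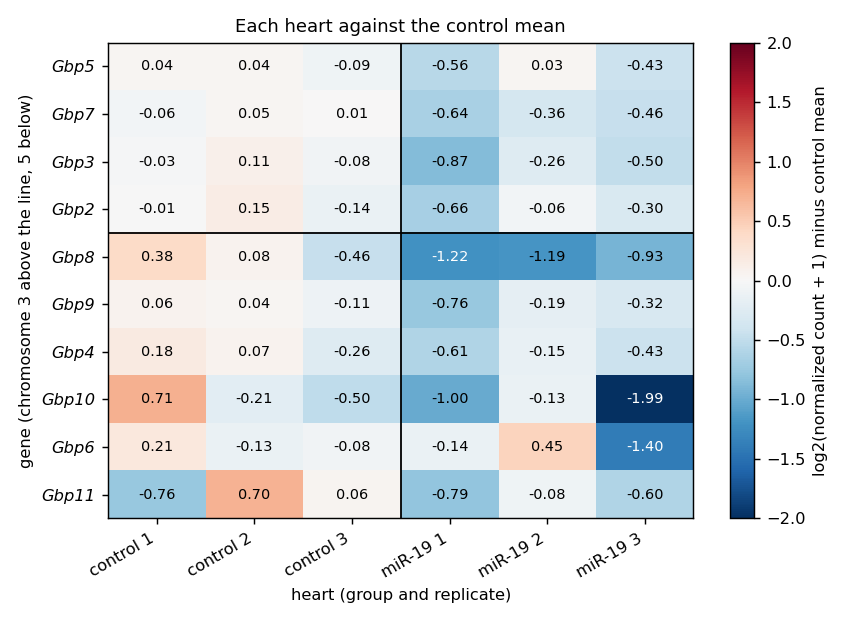
Log2(normalized count + 1) of each GBP gene (rows, chromosome 3 above the line and chromosome 5 below) minus its control mean, in each of the 6 hearts (columns), from blue for lower to red for higher. Replicates 1 and 3 of the miR-19a/19b mimic hearts are below 0 for every member, and replicate 2 is close to 0 for Gbp2 (-0.06) and Gbp5 (0.03) and above it for Gbp6 (0.45).

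Of the 5 genes outside the family whose profile over the 6 hearts was most like the mean of the members, 2 are IRGs (Tgtp2 and Iigp1) and the others are known as interferon-induced (Ifit1bl1 and Ifi27l2a) or as a marker of stem cells and lymphocytes that interferon also induces (Ly6a). Their root-mean-square difference from the family, over 6 hearts and among 12731 genes with a mean of at least 50, was 0.07 for Tgtp2, 0.07 for Ifit1bl1, 0.08 for Ifi27l2a, 0.10 for Iigp1 and 0.10 for Ly6a in log2 units, where the family's own profile had an SD of 0.37. Tgtp2 had 246, 238 and 229 normalized counts in control mimic hearts, against 137, 197 and 145 after miR-19a/19b injection. Among the hearts given the mimics, Tgtp2 was highest in replicate 2, as the mean of the members was. It was lowest in replicate 1, where that mean was about as low as in replicate 3. Since Tgtp2 was picked for its likeness to this profile, the shared order is no separate observation. With Gbp6, Gbp10 and Gbp11 left out of the mean, the 5 nearest genes were all different. These were Ereg (0.06), H2-T22 (0.06), Uba7 (0.08), Ly6e (0.08) and Rsad2 (0.09). None of them is an IRG, which does not mean that none is interferon-induced. The profile of Gbp6 alone was nearest to other genes, all outside the interferon lists and looked up after its values were seen. They were Hist1h4h, Sh2d4a, Lmod3, Lman1l and Hbb-bs, at differences of 0.17 to 0.22 where the profile of Gbp6 had an SD of 0.64. Lmod3, an actin-nucleating protein of muscle, had 555, 451 and 444 against 615, 601 and 193, lowest in the same heart as Gbp6. Since Lmod3 was picked for its likeness to Gbp6, the shared lowest heart is no separate observation.

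Of the pathway that switches the family on, 11 genes are given, from interferon gamma and its receptor to the factors and inhibitors below it. Of these, 9 had a log2 fold change below 0, with a median of -0.13, beside -0.45 for the GBP genes. By limma, 0 of the 11 were lower and 0 higher with p under 0.05 before adjustment, DESeq2 and edgeR's tests also gave 0 lower, and 3 were lower when miR-19a/19b mimic replicate 3 was left out, a setting in which 6.12% of all genes were lower. Every miR-19a/19b mimic heart lay below every control mimic heart for 3 of the 11, against 5.3% of all genes tested. These were Ifngr1, a receptor chain, and the receptor kinases Jak2 and Jak1, with log2 fold changes of -0.21, -0.15 and -0.07. Ifng, the cytokine itself, was near the limit of counting, at 1.11, 1.95 and 0.934 against 1.08, 2.06 and 1.73, and no order of the groups could be seen at this depth. Irf1, an interferon-induced factor that acts on GBP promoters, had 841, 788 and 706 against 599, 702 and 857, with groups that overlapped and a log2 fold change of -0.13 (unadjusted p = 0.404). Socs1, the inhibitor of this pathway that carries the 8-mer shown above, had 115, 143 and 90.6 against 58.1, 105 and 138. These groups overlapped as well, at a log2 fold change of -0.27 (standard error 0.31, unadjusted p = 0.406).

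The IRGs, which act with GBPs on vacuoles, had log2 fold changes below 0 for 8 of 8 genes, with a median of -0.68. By limma, 7 of 8 were lower at an unadjusted p-value under 0.05, against 2.63% of all genes tested. Irgm2, one of the regulatory IRGs, had 1273, 1282 and 1132 normalized counts in control mimic hearts, against 698, 853 and 715 after miR-19a/19b injection. Its groups were far apart, for a log2 fold change of -0.71 (standard error 0.11, unadjusted p = 0.000169, adjusted p = 0.396 from limma). The other regulatory IRGs followed, Irgm1 at -0.73 and Igtp at -0.81, as did the effector IRGs Gm12250 (-0.83), Ifi47 (-0.65), Tgtp2 (-0.59) and Iigp1 (-0.53). Tgtp1, a near copy of Tgtp2, had -0.35 (unadjusted p = 0.181). Among 11 other targets of interferon gamma, 6 were lower at an unadjusted p-value under 0.05, beside the same 2.63% of all genes, with a list median of -0.38. They were the antigen presentation genes Tap1 (-0.46), Psmb9 (-0.38), B2m (-0.37) and Ciita (-0.51), the chemokine Cxcl9 (-0.68) and the checkpoint ligand Cd274 (-0.74). Ido1 had a log2 fold change of 0.57 on 13.3 normalized counts or fewer (unadjusted p = 0.276).

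The inflammasome genes, whose products GBPs help to assemble, were below 0 for 8 of 8, with a median of -0.29, and Il18, a cytokine that inflammasomes release, was the only one with an unadjusted p-value under 0.05 (log2 fold change -0.53, unadjusted p = 0.0472, groups that overlapped). That count was 0 with 7 of the 9 other settings that used all 6 hearts. Casp1 (-0.04) and Pycard (-0.06), the protease and the adaptor of the inflammasome, were near 0. Of 6 related dynamin-like GTPases tested, Mx1 (-0.85), Mx2 (-0.75) and Gvin1 (-0.46), all interferon-induced, were lower at an unadjusted p-value under 0.05. At that threshold, limma found 2.63% of all genes tested lower. The atlastins Atl1, Atl2 and Atl3, which shape the endoplasmic reticulum and are not interferon genes, had log2 fold changes between -0.06 and 0.10. Over these lists, 0 genes were higher at an unadjusted p-value under 0.05 and 0 passed adjustment over all genes.

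**Figure D4:**
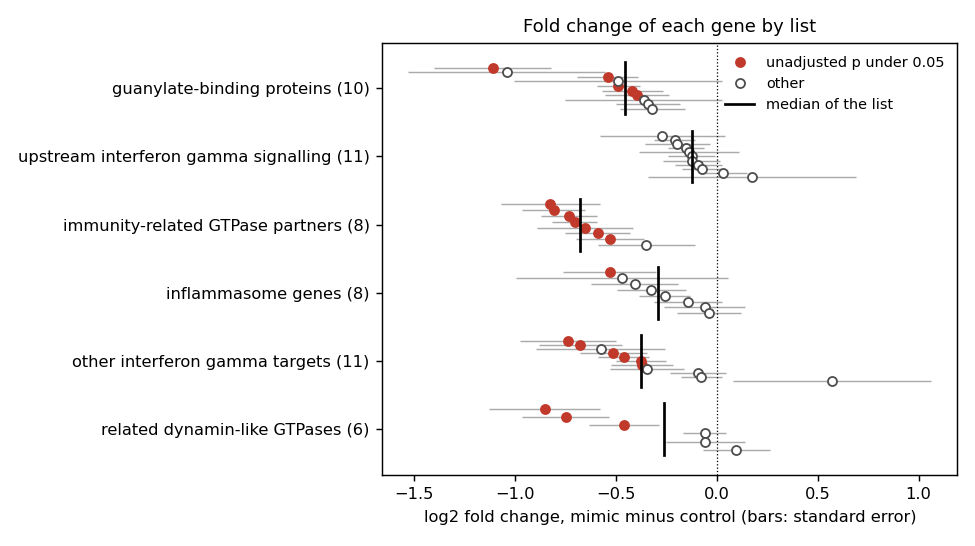
Log2 fold change (x axis, miR-19a/19b mimic minus control mimic) of the tested genes of 6 lists (rows, number of genes in brackets), with the standard error as a bar. Filled points are under 0.05 in limma before adjustment, and black ticks are list medians, at -0.45 for the GBPs, -0.68 for the IRGs and -0.13 for the upstream genes.

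GBPs and their partners are made by several cell types of the infarct, so markers of these cells were read beside them. T cell markers had log2 fold changes below 0 for 7 of 7 genes, 2 at an unadjusted p-value under 0.05, and their summed normalized count was 209 to 304 in control mimic hearts, against 163 to 183 after miR-19a/19b injection. NK cell markers were below 0 for 4 of 4, 2 of them under 0.05, with sums of 90.6 to 164 against 53.8 to 83.9. Monocyte markers were below 0 for 4 of 4, 3 under 0.05, with sums of 4385 to 5889 against 2689 to 3842. For these 3 lists the ranges of the groups did not overlap. Macrophage markers were below 0 for 6 of 7, 0 of 7 under 0.05, with overlapping sums of 65989 to 75064 against 52585 to 82903. Sums also overlapped for neutrophil (4 of 4 markers below 0, 1 under 0.05), dendritic cell (3 of 4, 2 under 0.05) and B cell markers (3 of 4, 0 under 0.05). The same held for endothelial (3 of 6, 0 under 0.05) and fibroblast markers (4 of 6, 0 under 0.05). Over all genes tested, 49.2% were below 0 and 2.63% were lower at an unadjusted p-value under 0.05 from limma. No marker of these lists was at 0 in all hearts. The part of these cells in the lower GBP levels was not tested.

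The libraries held 19398196 to 23645308 reads on genes, of which mitochondrial genes took 3.18% to 6.93%. All 6 cardiomyocyte markers were present in every heart, and their sum was 421420 to 545570 in control mimic hearts, against 754430, 661830 and 257590 after miR-19a/19b injection. Replicate 3, lowest for Gbp6 and Gbp10, was thus also the lowest in cardiomyocyte markers, and replicate 1, lowest for the other 8 members, held a skeletal muscle marker sum of 2734 where the other 5 hearts had 28.3 to 70.9. The part of either in the GBP values was not tested. With replicate 1 left out, 3 members had an unadjusted p-value under 0.05 (Gbp3, Gbp7 and Gbp8), and with replicate 3 left out 6 had. Over all genes tested, 2.47% were lower at that threshold without replicate 1 and 6.12% without replicate 3. With 3 hearts a side, the smallest p-value that an exact permutation test of 1 gene can reach is 0.1. The limma p-values here set the difference between groups against the spread among the 3 animals within each, moderated over all genes.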

How the data were processed

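Polyadenylated RNA from fresh ventricles was sequenced as 150-base pairs, aligned by the authors with STAR 2.5.1b and counted per gene with HTSeq 0.6.0. Whether counting used strand is not given in the sources used here, and the submitters' processing notes list mm9 and DESeq2 1.10.1. The deposited signal is a normalized count, the reads of a gene over the size factor of that library (0.905 to 1.16), and 100% of the values gave whole reads within 0.01 read. The log2 fold changes and p-values that the authors deposited, and their table of selected genes, were not used.

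Gene coordinates were compared with GENCODE M21 (GRCm38), which held 25884 of 26012 identifiers, 82.7% of these with the same position. Groups, 3 hearts each, came from the sample labels. Log2(normalized count + 1) was tested with limma 3.58.1 (R 4.3.3, trended prior) for genes whose mean was at least 1, with Benjamini-Hochberg adjustment. Also run were DESeq2 1.42.0, edgeR 4.0.16 (quasi-likelihood and exact) and limma-voom on the recovered reads, TMM scaling, no filter, at least 10 reads in every heart, the pseudocount set to 0.1, a block for replicate number, and each heart left out in turn. Summing the normalized counts of Gbp6 and Gbp10 as 1 gene, and leaving out Gbp6, Gbp10 and Gbp11, were added after seeing the data. The tests were checked on simulated reads of 21126 genes, 200 of them changed 2-fold, at an adjusted p-value under 0.05. Limma recovered 80.5% of these, with 4 calls at unchanged genes. DESeq2 and edgeR's exact test each recovered 91%, with 41 and 38 calls at unchanged genes. The quasi-likelihood test recovered 87.5% with 13 such calls, and limma-voom 85.5% with 8.

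The members, the gene lists and the markers were chosen with earlier results of these data known. Named genes are all members, list genes with an unadjusted p-value under 0.05, Gbp2b, Irf1, Ifng, Socs1 and the 5 genes nearest to the mean profile of the members. Ifngr1, Jak1, Jak2, Ido1, Casp1, Pycard, Tgtp1, the atlastins and the neighbours of Gbp6 and of the 7-member mean fall outside it and were picked with their values in view. An item of the upstream list is not reported here. Promoters and miRNAs came from RefSeq tables (GRCm38.p6), coding sequences and 3′ UTRs from GENCODE M21.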

Additional observations from a re-analysis of the deposited data

How the results depend on the processing

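The median log2 fold change of the GBP genes lay between -0.46 and -0.42 in the settings that used all 6 hearts, including the setting without Gbp6, Gbp10 and Gbp11 (-0.42, with 5 members under 0.05), and between -0.62 and -0.36 with each heart left out. The number of members lower at an unadjusted p-value under 0.05 was 5 in the other settings of 6 hearts, 4 without a filter (Gbp4 was lost) and 7 with a replicate block (2.05% of all genes), which added Gbp2 and Gbp10 and changed no other member's call. The correlations of same-numbered deviations were -0.02, -0.17 and -0.29, and those of differently numbered hearts ran from -0.24 to 0.31. They gave no sign that the replicate numbers pair the hearts, but with 3 hearts a group they cannot show that there was no pairing. With the replicate block 0 genes passed adjustment. With each heart left out, the number of members ranged from 3 (without control mimic replicate 1 or 2 or miR-19a/19b mimic replicate 1) to 8 (without miR-19a/19b mimic replicate 2, where 1.96% of all genes were lower at that threshold), the share of all genes from 1.76% to 6.12%, and the number past adjustment from 0 to 1. Over all genes, adjusted calls lower and higher came to 28 and 1 with DESeq2 and to 28 and 2 with edgeR's exact test, and leaving out hearts gave 0 to 154 lower and 0 to 361 higher, the upper ends without miR-19a/19b mimic replicate 3. The log2 fold change of Gbp6 ranged from -0.77 without miR-19a/19b mimic replicate 2 to 0.15 without replicate 3, against -0.36 with all hearts. Genes of the upstream list under 0.05 numbered 2 without a filter and 0 to 3 with hearts left out. Inflammasome genes under 0.05 numbered 0 with DESeq2, edgeR's tests, limma-voom, no filter, at least 10 reads in every heart and the replicate block, and 0 to 4 with hearts left out. Other interferon gamma targets numbered 3 to 8 with hearts left out, 3 of them without control mimic replicate 1. The cause of these differences was not tested. Gbp8, Gbp10 and Gbp11 rest on 66 reads per heart or fewer.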
